A study of Mus musculus with 16 samples.

Results

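The ATF4 and endoplasmic reticulum (ER) stress genes are 43 mouse genes of the 50686 gene IDs in the deposited tables. They form 2 arms, 22 targets of the transcription factor ATF4 together with Atf4 itself and its partners, and 21 genes of protein folding, quality control and stress sensing in the ER. They are taken by name from a list built on known function, by a rule that uses no measured value, although the list was proposed with earlier results of these data known. All 43 were found under 1 Ensembl ID each, and all 43 passed the filter on low counts and were tested. The RNA was from haematopoietic stem cells (HSCs), which sustain all blood lineages. For each sample 10000 cells in G0/1 were sorted from lineage-depleted long-bone marrow of C57BL/6J mice by their staining for CD117, Sca-1, CD48 and CD150. All mice had been injected intraperitoneally with 100 μL of 20% DMSO and 40% PEG 400 in PBS every 48 h over 85 days. The vehicle group had this carrier alone, the palbociclib group 30.4 mg/kg of the CDK4 and CDK6 inhibitor palbociclib (PD in the labels), the rapamycin group 6.4 mg/kg of the mTOR inhibitor rapamycin, and the combination group both drugs at those doses. Each group had 4 libraries. The sources used here do not give age, sex, or whether a library was 1 mouse or a pool. The p-values therefore rest on the spread among these libraries, part of which may be technical.

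Libraries held 10133860 to 15328830 counts and 16570 to 20418 genes with a count. All 12 HSC markers, among them Kit, Ly6a (Sca-1), Slamf1 (CD150), Procr and Mecom, had a median above 1 TPM in every group, with summed levels of 833 to 1656 TPM with vehicle, 663 to 1316 with palbociclib, 978 to 1515 with rapamycin and 1605 to 2117 with both drugs. Genes listed as markers of other blood cells were also detected, and all 16 neutrophil and all 6 megakaryocyte markers likewise had a median above 1 TPM in every group. Detection alone does not say which cells held this RNA. HSC markers took 0.116% to 0.292% of the counts of a library, neutrophil genes 0.862% to 9.71%, and B cell and plasma cell genes 0.0110% to 4.01%. In bulk RNA, fewer cells of a type and less RNA per cell cannot be told apart.

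ATF4 is the main effector of the integrated stress response. Stress kinases phosphorylate the initiation factor eIF2, general translation slows, and ATF4 mRNA is translated more. ATF4 then switches on genes for amino acid synthesis, amino acid uptake and feedback on the response, and mTOR complex 1 is known to sustain ATF4 translation as well. The unfolded protein response senses misfolded protein in the ER through the kinase PERK, the nuclease IRE1 (encoded by Ern1) and the membrane-bound factor ATF6. IRE1 splices Xbp1 mRNA into the form that encodes an active factor, and XBP1 and ATF6 raise ER chaperones and degradation genes. HSCs are known for low protein synthesis and for sensitivity to ER stress. Gene-level RNA does not show ATF4 translation, Xbp1 splicing or ATF6 cleavage, so what follows is about the abundance of mRNAs.

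ATF4 and the ER factors are known to act through short promoter elements, which were searched for in the members. RefSeq windows of 300 bases, from 250 before the start of transcription to 50 after it (GRCm38.p6, the assembly of mm10), matched 38 of the 43 members. Slc7a5, Cth, Manf, Atf6 and Hyou1 had none. The 4 kinds of element were searched on both strands. The core of the C/EBP-ATF element bound by ATF4 and its partners, TGATGNAA, lay in a window of 6 of the 20 ATF4-arm genes that have one (30%) and of 1 of the 18 ER-arm genes, Herpud1, against 4.51% of the 26994 genes in the whole table and 3.97% of its 32817 windows. Atf5, Psat1, Slc7a1 and Vldlr have 2 windows each. These sites are shown because they mark which genes of the ATF4 arm (enzymes Asns and Pycr1, feedback genes Chac1 and Trib3, transporter Slc7a11 and receptor Vldlr) carry the element close to the start. Capitals mark the match, lower case the 5 bases on either side, and each is read 5′ to 3′ on the strand named.

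Chac1, chr2:119351044-119351061, minus strand: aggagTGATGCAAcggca
Trib3, chr2:152344034-152344051, plus strand: ccggcTGATGTAAacctg
Asns, chr6:7693220-7693237, minus strand: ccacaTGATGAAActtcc
Pycr1, chr11:120643839-120643856, minus strand: gtgtaTGATGCAAtgcac
Slc7a11, chr3:50443667-50443684, minus strand: gtggcTGATGCAAacctg
Slc7a11, chr3:50443648-50443665, plus strand: catgaTGATGCAAattct
Vldlr, chr19:27216815-27216832, minus strand: agcgcTGATGCAActatt
Herpud1, chr8:94386312-94386329, minus strand: cgggcTGATGCAAcccgc

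The ER stress element, a CCAAT box and a CCACG box 9 bases apart (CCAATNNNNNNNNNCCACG), was in a window of 8 of 18 ER-arm genes (44.4%) and 0 of 20 ATF4-arm genes, against 37 of 26994 genes (0.137%) and 0.119% of all windows. Of those 37 genes 8 were members. It lay in the promoters of the chaperones Hspa5, Hsp90b1, Calr and Canx, the disulfide isomerase Pdia6, the cochaperone Dnajc3, the secreted factor Creld2 and the degradation ligase Syvn1. Hsp90b1 had it at both of its printed sites, in opposite orientations.

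Hspa5, chr2:34772020-34772048, plus strand: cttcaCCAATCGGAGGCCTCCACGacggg
Hsp90b1, chr10:86705633-86705661, minus strand: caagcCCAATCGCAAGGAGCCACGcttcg
Hsp90b1, chr10:86705528-86705556, plus strand: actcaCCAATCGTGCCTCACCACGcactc
Calr, chr8:84847070-84847098, plus strand: atgggCCAATGAGGGTCGACCACGcgttg
Canx, chr11:50325795-50325823, minus strand: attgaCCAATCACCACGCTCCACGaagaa
Pdia6, chr12:17266486-17266514, plus strand: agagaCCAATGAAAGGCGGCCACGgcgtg
Dnajc3, chr14:118937822-118937850, plus strand: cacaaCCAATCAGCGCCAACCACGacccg
Creld2, chr15:88819515-88819543, minus strand: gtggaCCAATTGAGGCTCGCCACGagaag
Syvn1, chr19:6046527-6046555, plus strand: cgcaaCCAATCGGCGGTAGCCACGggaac

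A second form of the element, ATTGGNCCACG, in which the boxes are 1 base apart, lay in Dnajb11 and Herpud1 and in 0.0366% of all windows.

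Dnajb11, chr16:22857847-22857867, plus strand: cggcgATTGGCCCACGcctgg
Herpud1, chr8:94386372-94386392, plus strand: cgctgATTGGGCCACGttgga

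The core shared by XBP1 and ATF6 sites, TGACGTG, was found in 1 member, Hspa5, and in 2.01% of all windows.

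Hspa5, chr2:34771928-34771944, plus strand: agcaaTGACGTGagttg

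The motifs overlapped each other in none of these 16 members. A match describes letters in the window, and a window without one says nothing about a factor. Both arms were listed by known function, the ATF4 arm as targets of ATF4. The shares set beside those of all genes therefore describe the lists and are not a test. Counted from the start of transcription of the window that holds the match, those of Trib3 and Dnajb11 began just after it and all others before it. The Vldlr match lay only in the more downstream of its 2 windows.

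**Figure D1:**
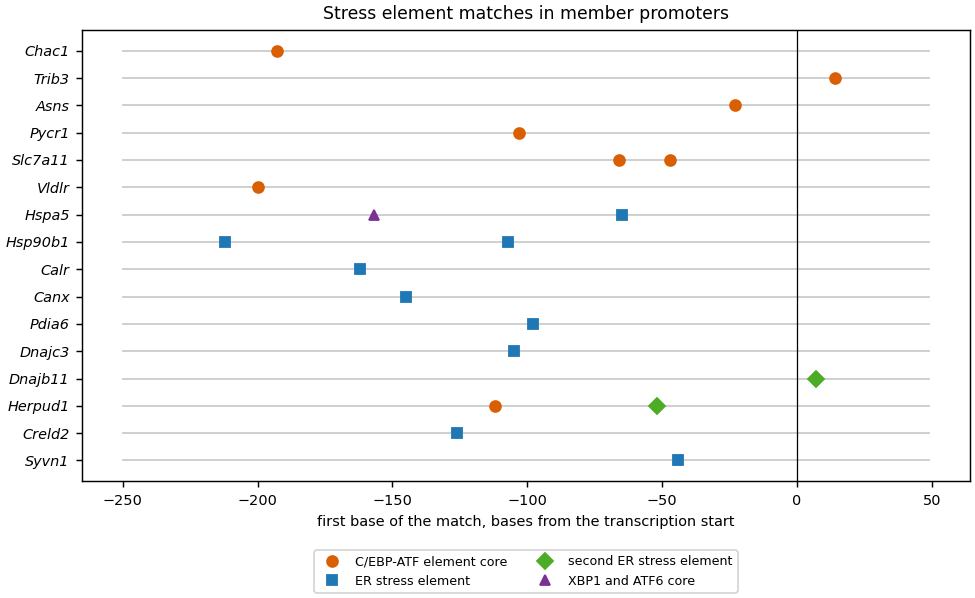
Positions of the 4 elements in the promoter windows of the 16 members that hold one. The x axis is the distance in bases of the first base of a match from the start of transcription of its window (vertical line). Grey lines are the windows, and symbols mark the kind of element. C/EBP-ATF cores (circles) lie in ATF4-arm genes and in Herpud1, and ER stress elements (squares) lie in ER-arm genes.

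Levels between genes are compared in TPM, a transcript abundance corrected for transcript length and library size. In vehicle libraries the ER arm held the most abundant members. Hspa5, the ER chaperone BiP, averaged 727 ± 298 TPM (SD, n = 4), above 98.7% of the tested genes. Next were the lectin chaperone Calr at 567 ± 66.8 and the disulfide isomerase Pdia3 at 422 ± 64.2 TPM. The lowest Hspa5 library, at 546 TPM, lay below the highest Calr library, at 626, so the first and second places do not differ beyond their spread. The highest Pdia3 library and the lowest Calr library were both at 503 TPM, so these neighbours just touched. The ATF4 arm was led by Slc3a2, the heavy chain of several amino acid exchangers, at 319.5 ± 47.9 TPM, followed by Phgdh, the first enzyme of serine synthesis, at 238 ± 36.2, Atf4 at 237 ± 86.2 and Ddit3, which encodes the factor CHOP, at 173 ± 23.4 TPM. These last 3 overlapped in range.

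The lowest members were Atf6 (2.55 ± 1.07 TPM), the cystine transporter Slc7a11 (2.54 ± 1.79), Atf5, an ATF4-related factor (0.738 ± 0.752), and Cth, the last enzyme of cysteine synthesis (0.475 ± 0.735). Neighbours in this order overlapped in range. Xbp1 stood at 290.0 ± 67.8 TPM, well above the sensors Ern1 at 11.4 ± 6.43 and Atf6. The median SD within groups was 0.41 on the log2 CPM scale in both arms, against 0.55 over all 15308 tested genes. The genes were not matched for abundance. The 4 lowest members, Atf6, Slc7a11, Atf5 and Cth, had pooled SDs of 1.05, 0.74, 0.96 and 1.10. Slc3a2 was among the steadiest, with a pooled SD of 0.18, lower than in all but 3.41% of tested genes, and Vldlr among the least steady, with 1.72, above 94.7% of them.

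**Figure D2:**
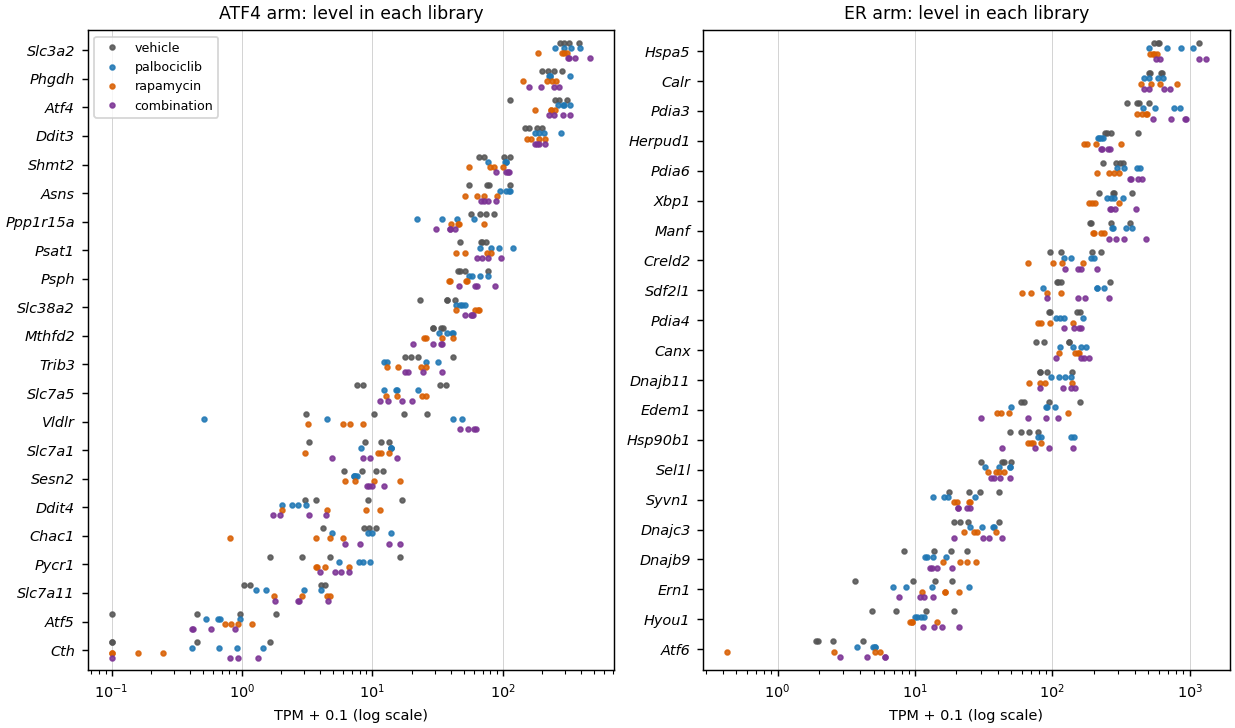
Level of each member in each of the 16 libraries, as TPM + 0.1 on a log axis, ATF4 arm left and ER arm right, ordered by the vehicle mean. Each point is a library, coloured by group. Members span from Hspa5, near 727 TPM in vehicle, to Cth and Atf5, below 1 TPM, and the groups overlap for most genes.

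CPM values are counts scaled to library size with TMM factors. Fold changes come from an edgeR quasi-likelihood fit over all 16 libraries, with p-values adjusted over the 15308 tested genes by the Benjamini-Hochberg method and called at 0.05. The comparisons with vehicle share the same 4 vehicle libraries, so their values stand side by side and are not set against each other. No member was called in any of the 8 comparisons by edgeR. By limma on log2 TPM values, for the 13988 genes with a mean of at least 1 TPM, no member was called either. Atf5 and Cth were below that mean and were not among those genes. By DESeq2 6 calls were made, named below beside the share of all genes that DESeq2 called, which was higher than that of edgeR in all 8 comparisons. The libraries of a group varied by 55.8% beyond counting noise in the edgeR fit (common biological coefficient of variation), with 4 libraries a group. The absence of a call therefore does not show that a gene was unchanged.

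Palbociclib alone against vehicle asked what CDK4 and CDK6 inhibition does to these genes. By edgeR 0 of 43 members were called, as were 0% of all tested genes, and DESeq2 and limma called 0 members, beside 0.732% and 0% of genes. At an unadjusted p under 0.05 there were 4 members, 2 in each arm, or 2 of 22 and 2 of 21, beside 9.51% of all genes. Median log2 fold changes were 0.15 in the ATF4 arm, with 15 of 22 positive, and 0.13 in the ER arm, with 14 of 21 positive, against -0.03 over all genes and 47.8% positive. The ATF4-arm median was -0.0129 without vehicle replicate 3, and the ER-arm median -0.0676 with the neutrophil share as a covariate. In this comparison 13 of 16 neutrophil markers had positive values (median 0.88) and 11 of 12 HSC markers negative ones (median -0.41). Values were also negative for 9 of 10 tested B cell markers (median -2.92) and 11 of 12 plasma cell markers (-0.96). None of these markers was called by edgeR. With the B cell and plasma cell share as a covariate the medians were 0.19 in the ATF4 arm and 0.26 in the ER arm. The part of these markers in the values of the members was not tested beyond those covariates. All 8 enzymes of amino acid and one-carbon metabolism had positive values, while 4 of 5 genes of feedback and growth restraint had negative ones. The groups did not overlap for 3 members, Ppp1r15a and Ddit4 (lower) and Pdia3 (higher), against 5.04% of all genes.

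Rapamycin alone against vehicle asked about mTOR inhibition. By edgeR 0 of 43 members were called, beside 0.00653% of genes (1 of 15308), and DESeq2 and limma called 0 members, beside 0.562% and 0.00715% of genes. An unadjusted p under 0.05 was reached by 5 ATF4-arm and 3 ER-arm members, 7 of the 8 with negative values, beside 7.65% of all genes. The median log2 fold change was -0.28 in the ATF4 arm (18 of 22 negative) and -0.22 in the ER arm (14 of 21 negative), against -0.01 over all genes with 48.99% positive. All 8 amino acid and one-carbon enzymes and all 4 ER degradation genes had negative values, none of them called. Groups were apart for 1 member, Slc3a2, which was lower, beside 3.07% of genes. With the log2 share of B cell and plasma cell genes as a covariate the ER-arm median was 0.30, and the ATF4-arm median -0.23. Without vehicle replicate 4 the ATF4-arm median was -0.0916, without rapamycin replicate 1 the ER-arm median was -0.0962, and by limma the medians were -0.0998 and -0.0744. Without vehicle 3, vehicle 4 and rapamycin 3 the ER-arm median was -0.0393 and the ATF4-arm median -0.23. All 9 erythroid markers had positive values here (median 0.40), none called by edgeR.

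Both drugs against vehicle gave 0 of 43 called by edgeR, beside 0% of all genes, 0 by limma, beside 0% of genes, and 1, Ppp1r15a, by DESeq2, beside 1.2% of genes. At an unadjusted p under 0.05 there were 3 members in each arm, beside 10.5% of genes. Medians were 0.08 in the ATF4 arm, with 12 of 22 positive, and 0.18 in the ER arm, with 14 of 21 positive, against -0.02 over all genes and 48.4% positive. The groups were apart for Slc38a2, Vldlr and Pdia6 (higher) and Ppp1r15a (lower), beside 5.56% of genes. Without combination replicate 3 the ER-arm median was 0.0033 and the ATF4-arm median -0.07. The ER-arm median was 0.51 with the B cell and plasma cell share as a covariate, and 0.55 without vehicle 3, vehicle 4 and rapamycin 3. Values were negative for 10 of 10 tested B cell markers (median -5.04), 11 of 12 plasma cell markers (-2.01) and 8 of 9 erythroid markers (-1.72), 0 of them called by edgeR. Their part in the values of the members was not tested beyond that covariate.

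Adding rapamycin to palbociclib was compared as combination against palbociclib. By edgeR and DESeq2 0 of 43 members were called, beside 0% and 0.137% of genes, and by limma 0, beside 0%. At an unadjusted p under 0.05 there was 1 member, Asns, beside 2.85% of genes. The ATF4-arm median was -0.12, with 9 of 22 positive, and the ER-arm median 0.07, with 15 of 21 positive, against -0.01 over all genes and 49.01% positive. Sesn2 alone had groups that did not overlap, against 3.85% of genes. The ER-arm median turned to -0.13 without combination replicate 3.

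Adding palbociclib to rapamycin, combination against rapamycin, gave the largest ER-arm median of the 5 comparisons between 2 groups. It was 0.49, with 19 of 21 positive, against 0.16 and 17 of 22 in the ATF4 arm and -0.02 with 48.1% positive over all genes. By edgeR 0 of 43 members were called, beside 0.0327% of genes, and by limma 0, beside 0.0929%, while DESeq2 called 1, Pdia6, beside 1.1% of genes. A fit of these 2 groups alone called 1, Vldlr, beside 0.4% of the 14003 genes it tested. An unadjusted p under 0.05 was reached by 5 ATF4-arm and 8 ER-arm members, 11 of the 13 with positive values, beside 9.79% of genes. The groups were apart for Pdia3, Pdia6, Manf, Slc3a2 and Vldlr (higher) and Ppp1r15a (lower), beside 8.85% of genes. All 3 disulfide isomerases and all 4 degradation genes had positive values. The ER-arm median was 0.21 without combination replicate 3, 0.66 without combination replicate 2, and 0.11 with the B cell and plasma cell share as a covariate. Of the erythroid markers, 9 of 9 had negative values (median -2.31) and the groups did not overlap for 7, with summed levels of 2263 to 4720 TPM with rapamycin and 868 to 1516 with both drugs. None of them was called by edgeR, none was at 0 in all libraries, and their part in the values of the members was not tested.

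Averaged over both levels of the other drug, palbociclib gave the lowest adjusted p-values of the members. Still 0 of 43 were called by edgeR, beside 0.274% of genes (42), and 0 by limma, beside 0.164%, while DESeq2 called 4, Pdia3, Pdia6, Ddit4 and Ppp1r15a, beside 3.1% of genes. There were 7 ATF4-arm and 5 ER-arm members at an unadjusted p under 0.05, beside 13.8% of genes. Medians were 0.19 and 0.31, with 16 of 22 and 16 of 21 positive, against -0.02 over all genes and 48.3% positive. For rapamycin averaged over palbociclib 0 members were called by edgeR, DESeq2 or limma, beside 0%, 0.274% and 0% of genes, and 3 ATF4-arm members reached an unadjusted p under 0.05, beside 4.64% of genes. Its medians were -0.18, with 3 of 22 positive, and -0.07, with 9 of 21 positive, against -0.01 over all genes and 49.1% positive. The interaction, which asks whether the drugs together differ from the sum of their separate log2 effects, had 0 members called by edgeR, DESeq2 or limma, beside 0%, 0.255% and 0% of genes, and 2 members, Slc3a2 and Ern1, at an unadjusted p under 0.05, beside 5.67% of genes. Interaction medians were 0.17 and 0.32, with 14 of 22 and 14 of 21 positive, against 0.01 over all genes and 50.7% positive. Both changed sign under alternatives, the ATF4-arm median in 4 of 26, down to -0.0858 by limma, and the ER-arm median in 1, at -0.13 with the B cell and plasma cell share as a covariate.

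**Figure D3:**
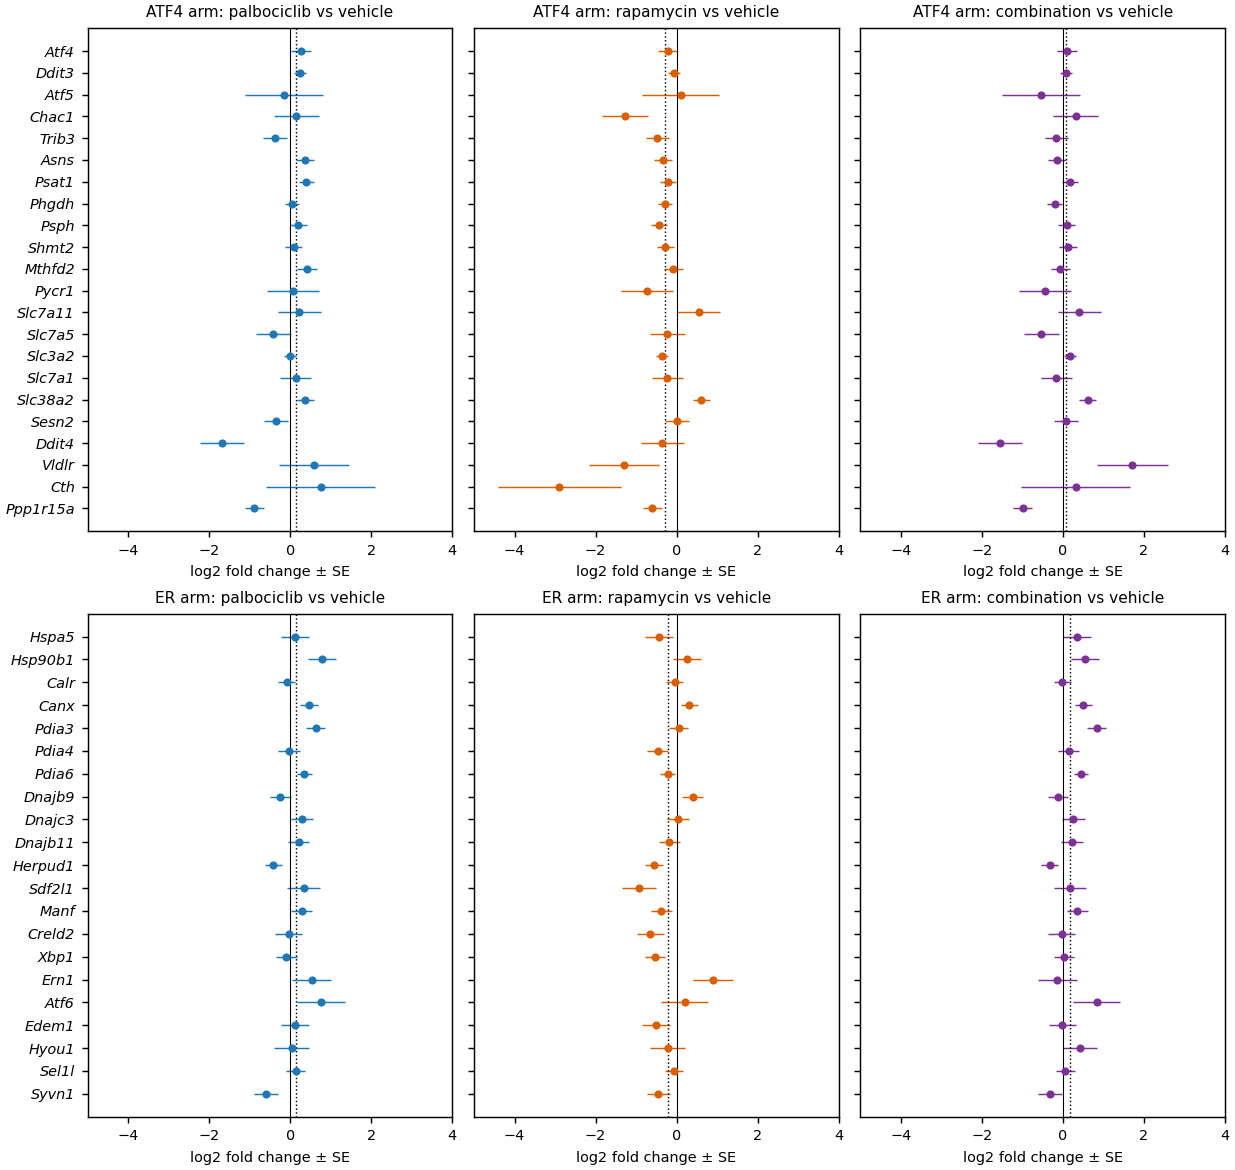
Fitted log2 fold change of each member against vehicle, with its standard error, for the ATF4 arm (top) and ER arm (bottom). Columns are palbociclib, rapamycin and combination, each from 4 libraries against the same 4 vehicle libraries, and the dotted line is the arm's median, from -0.28 (ATF4 arm, rapamycin) to 0.18 (ER arm, combination). Standard errors are widest for low or unsteady genes such as Cth, Atf5 and Vldlr.

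None of the transcription factors of the ATF4 arm was called. In what follows, values run over replicates 1 to 4 of each group. Atf4 stood at 321, 474, 155 and 421 CPM with vehicle, 442, 402, 402 and 389.8 with palbociclib, 281, 330.1, 229 and 338 with rapamycin and 415, 366, 380.1 and 316 with both drugs. Ddit3 stood at 120.0, 141, 102 and 135 CPM with vehicle, 133, 172, 143 and 139 with palbociclib, 99.3, 109.8, 138 and 128 with rapamycin and 122, 134, 143 and 125 with both drugs. Each drug group overlapped the vehicle group for both genes, although the 4 palbociclib libraries were above the 4 rapamycin libraries for Atf4, and the vehicle libraries of Atf4 covered nearly its whole range, from vehicle 3 as the lowest of all to vehicle 2 as the highest. For Atf4 the log2 fold changes against vehicle were 0.25 ± 0.25 (SE) after palbociclib, -0.22 ± 0.25 after rapamycin and 0.11 ± 0.25 after both (edgeR adjusted p = 0.793, 0.931 and 0.938). For Ddit3, the steadier gene, they were 0.23 ± 0.14, -0.07 ± 0.14 and 0.07 ± 0.14. Atf5 was too low to compare, at 0 to 2.07 CPM over the 16 libraries.

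Feedback genes held the member with the lowest p after palbociclib and after both drugs, against vehicle. Ppp1r15a encodes GADD34, which brings a phosphatase to eIF2 and so ends the response. It stood at 139.7, 117, 125 and 172 CPM with vehicle, 91.2, 101, 45.2 and 62.02 with palbociclib, 75.2, 77.1, 128 and 84.3 with rapamycin and 71.4, 67.3, 64.7 and 74.9 with both drugs. All 4 palbociclib and all 4 combination libraries lay below all 4 vehicle libraries, the combination ones within a narrow band, and rapamycin replicate 3 alone of the rapamycin libraries reached the vehicle range. Its mean was 139 ± 24.5 CPM with vehicle (SD, n = 4 in each group), 74.9 ± 25.9 with palbociclib, 91.1 ± 24.8 with rapamycin and 69.6 ± 4.51 with both. The log2 fold changes against vehicle were -0.89 ± 0.23, -0.60 ± 0.23 and -0.99 ± 0.24 (edgeR adjusted p = 0.272, 0.556 and 0.218). DESeq2 called it lower in the combination (adjusted p = 0.0149) and for palbociclib averaged over rapamycin (adjusted p = 0.0162, edgeR 0.106). Over the 27 other settings its combination fold change stayed between -1.06 and -0.87, with adjusted p from 0.0149 to 0.619.

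Ddit4 encodes REDD1, an inhibitor of mTOR complex 1 induced by many stresses. Its level was 20.4, 4.504, 12.8 and 6.17 CPM with vehicle, 3.56, 3.71, 2.97 and 3.49 with palbociclib, 13.96, 2.75, 11.8 and 6.005 with rapamycin and 5.54, 4.08, 2.57 and 2.64 with both drugs. The 4 palbociclib libraries lay close together below every vehicle library, while vehicle and rapamycin libraries were widely spread and overlapped the combination group. Its log2 fold change was -1.68 ± 0.55 after palbociclib, -1.56 ± 0.54 after both drugs and -0.35 ± 0.53 after rapamycin (edgeR adjusted p = 0.365, 0.317 and 0.959). For palbociclib averaged over rapamycin it was -1.45 ± 0.38, not called by edgeR (adjusted p = 0.111) and called lower by DESeq2 (adjusted p = 0.0115).

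Trib3, a pseudokinase that restrains ATF4 signalling, ran at 55.5, 32.7, 34.3 and 34.7 CPM with vehicle, 20.4, 43.8, 21.3 and 36.2 with palbociclib, 35.6, 24.7, 33.1 and 19.9 with rapamycin and 33.5, 48.6, 30.9 and 27.4 with both drugs. Sesn2, a leucine sensor that holds back mTOR complex 1, ran at 28.9, 32.6, 16.7 and 28.5 CPM with vehicle, 22.6, 17.7, 23.1 and 19.6 with palbociclib, 17.9, 29.2, 16.1 and 44.4 with rapamycin and 31.7, 23.3, 31.1 and 26.6 with both drugs. Chac1, which degrades glutathione and is a sensitive ATF4 target, ran at 4.56, 15.2, 11.1 and 14.8 CPM with vehicle, 13.1, 5.56, 19.6 and 12.4 with palbociclib, 4.09, 7.88, 0.878 and 5.93 with rapamycin and 19.4, 7.28, 19.3 and 10.5 with both drugs. Trib3 and Chac1 overlapped between all groups. For Sesn2 the combination libraries lay just above the palbociclib ones, the highest palbociclib library being at 23.1 and the lowest combination library at 23.3 CPM. Chac1 had its lowest level in rapamycin replicate 3. Its log2 fold change was -1.28 ± 0.57 for rapamycin against vehicle and 1.59 ± 0.58 for combination against rapamycin (edgeR adjusted p = 0.618 and 0.351). Sesn2 differed by 0.44 ± 0.30 between combination and palbociclib (edgeR adjusted p = 1.00).

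Of the enzymes, Asns makes asparagine from aspartate and is the classic ATF4 target. Its level was 104, 97.6, 179 and 152 CPM with vehicle, 185, 128, 195 and 173 with palbociclib, 71.2, 104, 137 and 111 with rapamycin and 104, 114, 119 and 143 with both drugs. Palbociclib libraries were mostly the highest and rapamycin and combination libraries mostly low, with every group overlapping the vehicle range. The log2 fold change was 0.35 ± 0.22 for palbociclib and -0.33 ± 0.22 for rapamycin against vehicle, and -0.51 ± 0.22 for combination against palbociclib (edgeR adjusted p = 0.663, 0.832 and 1.00). For rapamycin averaged over palbociclib Asns had -0.42 ± 0.16 (edgeR adjusted p = 0.961).

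The serine and one-carbon enzymes had no call either. Psat1, the second enzyme of serine synthesis, stood at 117, 96.7, 128 and 156 CPM with vehicle, 139, 194, 164 and 157 with palbociclib, 125, 93.8, 77.6 and 134 with rapamycin and 116, 164, 135 and 143 with both drugs. Mthfd2, a mitochondrial folate enzyme, stood at 31.5, 43.2, 45.2 and 45.6 CPM with vehicle, 62.4, 39.96, 64.2 and 53.6 with palbociclib, 28.1, 31.2, 51.5 and 45.7 with rapamycin and 42.1, 27.6, 49.3 and 39.3 with both drugs. Groups overlapped for both, except that the palbociclib libraries were all above the rapamycin libraries for Psat1, and the highest Psat1 library was palbociclib 2 and the highest Mthfd2 library palbociclib 3. Psat1 had a log2 fold change of 0.40 ± 0.19 for palbociclib against vehicle (edgeR adjusted p = 0.533), and Mthfd2 -0.48 ± 0.24 for combination against palbociclib (edgeR adjusted p = 1.00). Of the other enzymes, Phgdh and Psph of serine synthesis, Shmt2 of the glycine and folate cycle and Pycr1 of proline synthesis had log2 fold changes of 0.04 to 0.20 after palbociclib and -0.73 to -0.28 after rapamycin. Cth had 0 to 1.46 CPM in the 16 libraries, too low for a precise fold.

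Transporters divided between genes with positive and negative values. Slc38a2 encodes SNAT2, a sodium-coupled importer of neutral amino acids. It stood at 122, 177, 86.3 and 171 CPM with vehicle, 179, 161, 210.1 and 169.9 with palbociclib, 201, 253, 154 and 237 with rapamycin and 206, 178, 239.9 and 221 with both drugs. Every combination library lay above every vehicle library, by a small margin, and 3 of 4 rapamycin libraries did. Slc38a2 had log2 fold changes of 0.61 ± 0.21 after rapamycin, 0.61 ± 0.21 after both drugs and 0.38 ± 0.21 after palbociclib (edgeR adjusted p = 0.513, 0.317 and 0.613). It was the ATF4-arm member of smallest p in rapamycin against vehicle, and the 1 of 5 at an unadjusted p under 0.05 there with a positive value.

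Slc3a2 carries SLC7A5, SLC7A11 and related light chains to the cell surface. Its level was 397, 445, 366 and 408 CPM with vehicle, 411, 446, 350.3 and 404 with palbociclib, 322, 239, 360.1 and 345 with rapamycin and 415, 534, 449.6 and 419 with both drugs. All rapamycin libraries lay below all vehicle and all combination libraries, and palbociclib and vehicle libraries covered nearly the same range. The log2 fold change was -0.35 ± 0.15 for rapamycin against vehicle, 0.52 ± 0.15 for combination against rapamycin and 0.53 ± 0.21 for the interaction (edgeR adjusted p = 0.604, 0.265 and 0.814). Its light chain partners Slc7a5 and Slc7a11 had -0.23 ± 0.43 and 0.55 ± 0.53 after rapamycin, and the arginine and lysine transporter Slc7a1 had -0.23 ± 0.38, all with groups that overlapped.

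Vldlr, a lipoprotein receptor listed among ATF4 targets, had the widest spread. It stood at 9.13, 57.6, 21.00 and 82.8 CPM with vehicle, 1.25, 10.3, 127 and 117 with palbociclib, 18.9, 13.9, 21.4 and 15.1 with rapamycin and 122, 146, 137 and 155 with both drugs. All 4 combination libraries were high and all 4 rapamycin libraries low, whereas palbociclib split into replicates 1 and 2, near or below 10 CPM, and replicates 3 and 4, above 100. Its level in the combination was 139.9 ± 14.4 CPM against 17.3 ± 3.44 with rapamycin alone (SD, n = 4), a log2 fold change of 3.01 ± 0.92 (edgeR adjusted p = 0.292). In a fit of those 8 libraries alone, without the spread of the vehicle and palbociclib groups, Vldlr was called higher (edgeR adjusted p = 1.42e-04). Against vehicle the combination gave 1.72 ± 0.88 and palbociclib 0.59 ± 0.86 (edgeR adjusted p = 0.52 and 0.88).

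**Figure D4:**
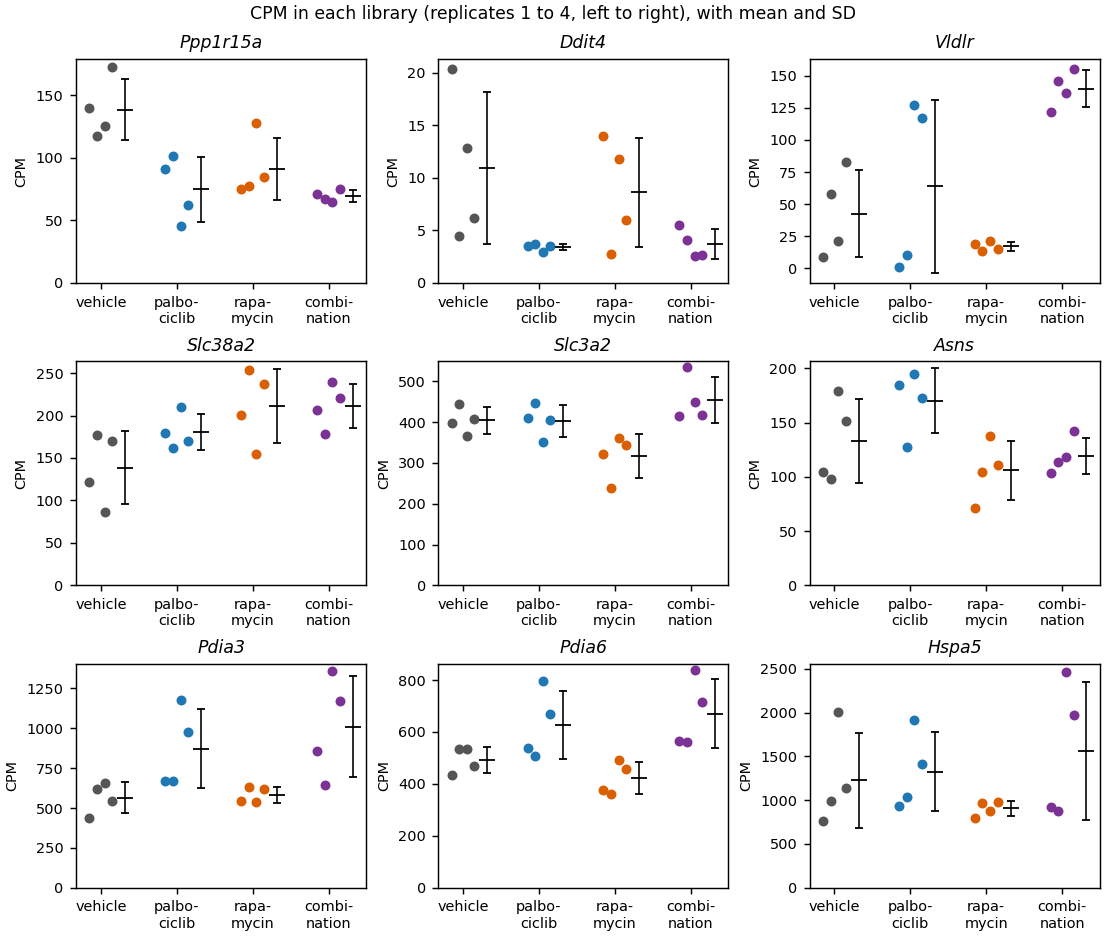
CPM of 9 members in each library, replicates 1 to 4 from left to right within a group, with the group mean and SD (n = 4) in black, on linear axes. Ppp1r15a and Ddit4 have lower means with palbociclib and with both drugs than with vehicle, Vldlr is high in all 4 combination libraries and low in all 4 rapamycin libraries, and Pdia3 and Pdia6 have their 4 highest values in replicates 3 and 4 of the combination and palbociclib groups.

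In the ER arm the mRNAs of the sensors Ern1 and Atf6 were low. Ern1 stood at 18.8, 28.8, 7.39 and 21.3 CPM with vehicle, 38.02, 47.4, 11.1 and 13.3 with palbociclib, 51.1, 37.2, 17.9 and 35.7 with rapamycin and 22.00, 21.8, 12.1 and 12.8 with both drugs. Atf6 stood at 7.84, 15.2, 11.02 and 29.3 CPM with vehicle, 24.1, 22.4, 32.1 and 28.5 with palbociclib, 27.9, 30.05, 1.83 and 13.04 with rapamycin and 31.97, 15.04, 39.6 and 26.2 with both drugs. Xbp1, the target of IRE1 splicing, stood at 292, 486, 597 and 557 CPM with vehicle, 431, 395, 569 and 417 with palbociclib, 283, 302, 448 and 303 with rapamycin and 387, 394, 735 and 463 with both drugs. Groups overlapped for all 3. Rapamycin replicates 1, 2 and 4 were above all vehicle libraries for Ern1 and the same 3 were among the 4 lowest of all 16 for Xbp1. The log2 fold changes for rapamycin against vehicle were 0.90 ± 0.48 for Ern1, 0.21 ± 0.58 for Atf6 and -0.53 ± 0.25 for Xbp1 (edgeR adjusted p = 0.736, 0.982 and 0.643). For the interaction Ern1 had -1.57 ± 0.68 and Xbp1 0.66 ± 0.35 (edgeR adjusted p = 0.856 and 0.909).

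Chaperone levels varied widely between libraries within groups. Hspa5 had 767, 996, 2011 and 1143 CPM with vehicle, 929.7, 1034, 1922 and 1417 with palbociclib, 792, 971, 875 and 985 with rapamycin and 921, 877, 2469 and 1974 with both drugs. Hsp90b1, the ER form of HSP90 (GRP94), had 117, 85.1, 169 and 164 CPM with vehicle, 188, 160.0, 282 and 297 with palbociclib, 139, 195, 157 and 147 with rapamycin and 144, 81.9, 337 and 218 with both drugs. Canx, a membrane lectin chaperone for new glycoproteins, had 353, 255, 405 and 327 CPM with vehicle, 385, 386, 592 and 479.9 with palbociclib, 419, 457, 325 and 466 with rapamycin and 450.0, 297, 579 and 577 with both drugs. High Hspa5 values came from vehicle 3, palbociclib 3 and 4 and combination 3 and 4, and all groups overlapped, the rapamycin group being the narrowest for Hspa5. In these 5 libraries B cell and plasma cell genes held 1.05%, 1.13%, 0.778%, 0.784% and 0.505% of counts, and neutrophil genes 4.44%, 8.37%, 6.31%, 7.32% and 5.22%. Vehicle 4, with 4.01% in B cell and plasma cell genes, had 1143 CPM of Hspa5. Palbociclib 1, with 0.636% in those genes and 9.71% in neutrophil genes, had 929.7 CPM. The relation of Hspa5 to the B cell and plasma cell share over all libraries is given below. The part of such RNA in these levels was not tested. The log2 fold changes of Hspa5 against vehicle were 0.11 ± 0.35, -0.44 ± 0.35 and 0.34 ± 0.35 for palbociclib, rapamycin and both (edgeR adjusted p = 0.949, 0.878 and 0.812). Hsp90b1 had 0.79 ± 0.34 after palbociclib and Canx 0.46 ± 0.22 after palbociclib and 0.51 ± 0.22 after both (edgeR adjusted p = 0.489, 0.528 and 0.436). Calr, the second most abundant member, had -0.08 ± 0.21, -0.04 ± 0.21 and -0.02 ± 0.21 against vehicle in the same order of groups.

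The cochaperones differed among themselves. Sdf2l1, a partner of BiP and one of the more responsive ER stress genes, had 86.6, 103, 225 and 118 CPM with vehicle, 201, 65.8, 226 and 178 with palbociclib, 45.6, 62.8, 94.6 and 77.3 with rapamycin and 139.7, 72.8, 254 and 136 with both drugs. Dnajb9, which encodes ERdj4, had 40.5, 17.8, 35.5 and 33.2 CPM with vehicle, 25.5, 29.7, 28.8 and 23.2 with palbociclib, 48.3, 43.3, 44.8 and 30.7 with rapamycin and 26.03, 23.1, 40.8 and 26.6 with both drugs. The rapamycin libraries were low for Sdf2l1, with replicate 3 alone inside the vehicle range, and 3 of them were above all vehicle libraries for Dnajb9. For rapamycin against vehicle the log2 fold changes were -0.93 ± 0.41 for Sdf2l1 and 0.40 ± 0.26 for Dnajb9 (edgeR adjusted p = 0.618 and 0.812). The J-domain proteins Dnajc3 and Dnajb11 and the large chaperone Hyou1 had log2 fold changes of -0.22 to 0.42 over the 3 comparisons with vehicle.

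Disulfide isomerases, which form and rearrange the disulfide bonds of secreted proteins, held the ER-arm members of lowest p in the comparisons of palbociclib and of both drugs with vehicle, of combination with rapamycin, and for palbociclib averaged over rapamycin. Pdia3 had 436, 617, 657 and 546 CPM with vehicle, 668, 669, 1175 and 978 with palbociclib, 545, 632, 536 and 619.9 with rapamycin and 860.3, 648, 1358 and 1171 with both drugs. Pdia6 had 434, 533, 533 and 468 CPM with vehicle, 539, 506, 795 and 669 with palbociclib, 378, 361, 491 and 457 with rapamycin and 567, 561, 838 and 715 with both drugs. All palbociclib libraries were above all vehicle libraries for Pdia3, all combination libraries were above all vehicle libraries for Pdia6, and for both genes the combination and rapamycin groups did not overlap. In each drug group with palbociclib, replicates 3 and 4 were higher than replicates 1 and 2 for both genes. Palbociclib replicates 1 to 4 held 0.636%, 0.0502%, 1.13% and 0.778% of counts in B cell and plasma cell genes. Combination replicates 1 to 4 held 0.249%, 0.0110%, 0.784% and 0.505%. Vehicle 4, with 4.01%, had 546 CPM of Pdia3 and 468 of Pdia6, inside the range of the other vehicle libraries. The relation of Pdia3 and Pdia6 to this share was not among those tested below. For palbociclib averaged over rapamycin the log2 fold change was 0.71 ± 0.17 for Pdia3 and 0.51 ± 0.13 for Pdia6, with edgeR adjusted p = 0.0832 and 0.0954, the lowest of all members in any comparison, and DESeq2 called both higher (adjusted p = 0.00452 and 0.0132). Over 26 other settings that of Pdia3 ran from 0.62 to 0.79, with adjusted p from 0.00452 to 0.207. In combination against rapamycin Pdia6 had 0.67 ± 0.18 (edgeR adjusted p = 0.252, DESeq2 0.0483) and Pdia3 0.79 ± 0.23 (edgeR 0.276). The third isomerase, Pdia4, had -0.03 ± 0.27, -0.47 ± 0.27 and 0.14 ± 0.27 against vehicle for palbociclib, rapamycin and both.

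Degradation genes, which clear misfolded proteins from the ER, were led by Herpud1, a scaffold of the retrotranslocation complex. Herpud1 had 282, 396, 602 and 488 CPM with vehicle, 358, 297, 369.7 and 301 with palbociclib, 259, 256, 426 and 265 with rapamycin and 304, 350.3, 419 and 334 with both drugs. Vehicle libraries were the most spread, and rapamycin replicate 3 stood apart from the other 3 rapamycin libraries. Its log2 fold changes against vehicle were -0.42 ± 0.22, -0.55 ± 0.22 and -0.33 ± 0.22 (edgeR adjusted p = 0.582, 0.571 and 0.655). Syvn1, the ubiquitin ligase HRD1, had -0.60 ± 0.29, -0.45 ± 0.29 and -0.32 ± 0.29, its adaptor Sel1l 0.13 ± 0.22, -0.07 ± 0.22 and 0.06 ± 0.22, and the mannosidase-like Edem1 0.12 ± 0.34, -0.50 ± 0.34 and -0.01 ± 0.34 in the same order. Of the secreted stress factors, Manf had 102, 179.7, 216 and 145 CPM with vehicle, 190.2, 145, 249 and 199 with palbociclib, 102, 121, 131 and 139.7 with rapamycin and 161, 143, 319 and 201 with both drugs. Its combination libraries were above all rapamycin libraries, at a log2 fold change of 0.74 ± 0.26 (edgeR adjusted p = 0.342). Creld2 had -0.65 ± 0.34 for rapamycin against vehicle and 0.62 ± 0.34 for combination against rapamycin (edgeR adjusted p = 0.709 and 0.592).

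The further genes of both pathways were taken from 4 lists by known function. None of the 39 tested other genes of the integrated stress response, 20 aminoacyl-tRNA synthetases, 42 other ER quality control genes and 29 genes of ER import and glycosylation was called in any of the 8 comparisons by edgeR. Of all tested genes edgeR called 0% to 0.274% in these comparisons, so the absence of calls is near that share. After palbociclib 19 of 20 tRNA synthetases had positive log2 fold changes, with a median of 0.28, and after rapamycin 15 of 20 had negative ones, with a median of -0.18. After both drugs 16 of 20 were positive, with a median of 0.15. Rars, the arginyl-tRNA synthetase, had the smallest p of its list after palbociclib (0.71 ± 0.16, edgeR adjusted p = 0.212) and after both drugs (0.55 ± 0.16, adjusted p = 0.259), and Eprs after rapamycin (0.36 ± 0.13, adjusted p = 0.549).

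Other stress response genes, among them the eIF2 kinases and further ATF4 targets, had medians of 0.05, -0.12 and 0.03 for palbociclib, rapamycin and both, with 20, 11 and 23 of 39 positive. Their smallest p-values belonged to the folate enzyme Mthfd1l after palbociclib (0.68 ± 0.19, edgeR adjusted p = 0.304), the stress-induced chromatin protein Nupr1 after rapamycin (-1.26 ± 0.32, adjusted p = 0.399) and Ndrg1 after both (1.18 ± 0.43, adjusted p = 0.338). The other ER quality control genes had medians of 0.10, -0.14 and 0.10, with 26, 13 and 27 of 42 positive. Tmbim6, an ER membrane protein that restrains cell death, had -1.24 ± 0.50 after palbociclib and -1.51 ± 0.51 after both (edgeR adjusted p = 0.455 and 0.307), and the disulfide isomerase Txndc5 -0.77 ± 0.25 after rapamycin (adjusted p = 0.501). Import and glycosylation genes had medians of 0.11, -0.15 and 0.11, with 20, 8 and 20 of 29 positive, led by the oligosaccharyltransferase subunits Dad1 after palbociclib (-0.49 ± 0.15, edgeR adjusted p = 0.338) and Krtcap2 after rapamycin (-0.38 ± 0.13, adjusted p = 0.513) and both (-0.41 ± 0.13, adjusted p = 0.279). These medians stand against -0.03 to -0.01 over all tested genes in the same comparisons.

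Levels of several members went with the share of counts in genes listed as markers of other blood cells. Plasma cells in particular are known for very high levels of XBP1 and ER chaperones. Summed plasma cell markers (13 listed, 13 found, none at 0 in all libraries) were 3548 to 58568 TPM with vehicle, 687 to 17004 with palbociclib, 124 to 2445 with rapamycin and 103 to 11447 with both drugs. Of the 12 tested, 12 had negative log2 fold changes for rapamycin against vehicle and 11 positive ones for combination against rapamycin, 0 of them called by edgeR. Summed B cell markers (11 of 11 found) were 75.8 to 2733, 64.6 to 411, 68.4 to 137 and 44.5 to 62.6 TPM, and summed neutrophil markers (16 of 16 found) 21064 to 103540, 21545 to 153140, 15269 to 105260 and 20718 to 115570 TPM, in the same order of groups. Rapamycin libraries, with 0.0162% to 0.173% of counts in B cell and plasma cell genes, did not overlap vehicle libraries, with 0.226% to 4.01%, so in that comparison the drug and this share cannot be told apart.

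Across the 16 libraries, log2 CPM of the 16 regulators and marker genes named by rule was compared with the log2 share of B cell and plasma cell genes and with that of neutrophil genes, 32 relations added after the data were seen, by permutation tests adjusted over the 32. Values were permuted over all 16 libraries without regard to group, so these p-values mix differences between groups with those within groups. The correlations between deviations from group means, given as within groups, were not tested. None of the 16 genes is in the marker lists. By Pearson r over the 16 libraries Sdf2l1 followed the B cell and plasma cell share most closely, at r = 0.804 (permutation p = 0.00025, adjusted p = 0.00656). Its Spearman rho was 0.856 (permutation p = 6e-05). With rapamycin 1 and combination 2, whose shares lay farthest from the median, left out, r was 0.748. Between deviations from group means it was 0.812. For Xbp1 the values were r = 0.714 (permutation p = 0.00188, adjusted p = 0.0201), rho = 0.794 (permutation p = 0.00037), r = 0.733 without 2 libraries and 0.661 within groups. Asns had r = 0.679 (permutation p = 0.00379, adjusted p = 0.0303), rho = 0.662 (permutation p = 0.00642), r = 0.599 without 2 libraries and 0.661 within groups. Herpud1 had r = 0.627 (permutation p = 0.00937, adjusted p = 0.0485), rho = 0.668 (permutation p = 0.00596), 0.695 without 2 libraries and 0.505 within groups. Ern1 ran the other way, at r = -0.622 (permutation p = 0.0106, adjusted p = 0.0485), rho = -0.662 (permutation p = 0.00639), -0.637 without 2 libraries and -0.577 within groups. Hspa5 did not pass, at r = 0.589 (permutation p = 0.016, adjusted p = 0.064) and rho = 0.694 (permutation p = 0.0041), with 0.515 without 2 libraries and 0.618 within groups. Hsp90b1 did not pass either, at r = 0.531 (permutation p = 0.0346, adjusted p = 0.0947) and rho = 0.638 (permutation p = 0.00969). It had 0.350 without 2 libraries and 0.827 within groups, which was above the within-group value of Sdf2l1.

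With the neutrophil share, Trib3 had r = -0.774 (permutation p = 0.00041, adjusted p = 0.00656), rho = -0.759 (permutation p = 0.00092), -0.800 without 2 libraries and -0.815 within groups. Sdf2l1 had r = 0.660 (permutation p = 0.0063, adjusted p = 0.0403), rho = 0.653 (permutation p = 0.00688), 0.498 without 2 libraries and 0.796 within groups. The other 25 relations, those of Atf4, Ddit3 and Ppp1r15a among them, had adjusted p above 0.05. Plasma cell and neutrophil shares are parts of the same libraries, so these relations describe how levels go together and do not say which cells held the RNA. In the fit with the B cell and plasma cell share as a covariate, the rapamycin against vehicle fold change of Sdf2l1 was 0.0738 in place of -0.93.

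**Figure D5:**
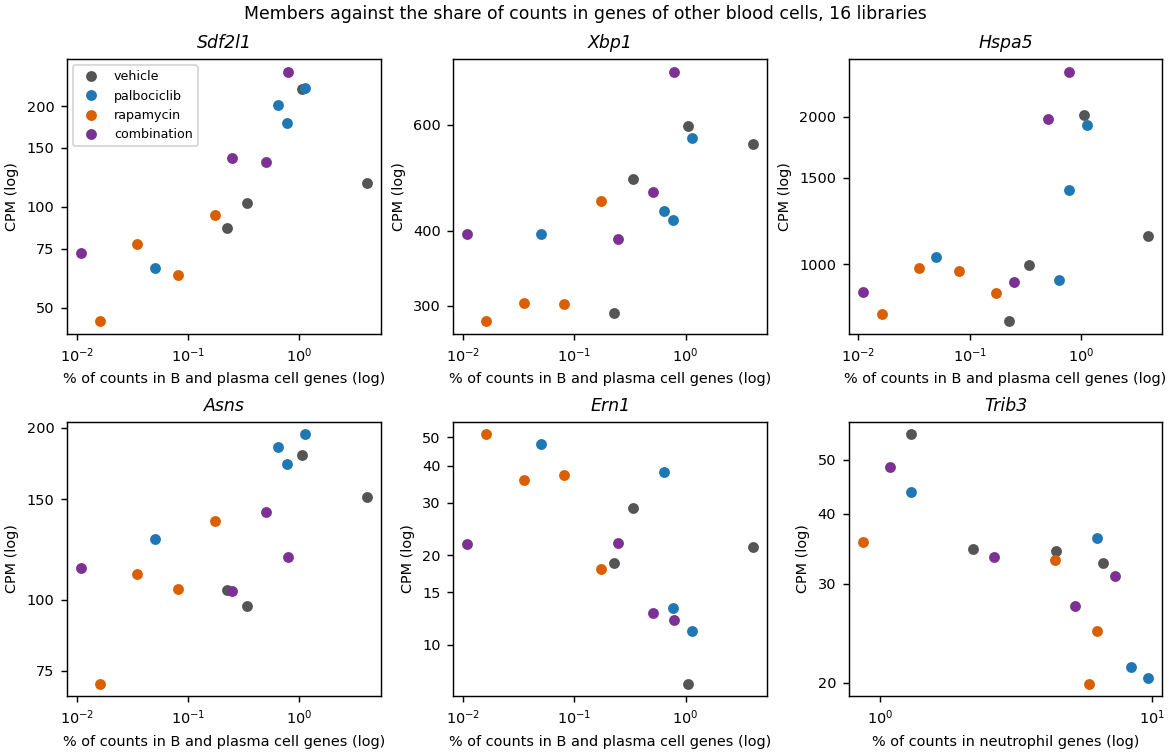
CPM of 6 members against the share of a library's counts in B cell and plasma cell genes (5 panels) or neutrophil genes (Trib3), both axes logarithmic, 1 point a library, coloured by group. Sdf2l1, Xbp1 and Asns are higher in libraries with a larger B cell and plasma cell share and Ern1 and Trib3 lower with larger shares (r = 0.804, 0.714, 0.679, -0.622 and -0.774 on log2 scales), Hspa5 did not pass the test (r = 0.589), and the 4 rapamycin points lie at the left of the vehicle points in the 5 panels.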

How the data were processed

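RNA of the 16 libraries had been made into cDNA with a Clontech v4 low-input kit, per the labels' protocols. The submitters' processing notes name STAR 2.5.3a, RSEM 1.3.0, SAMtools 1.3 and the build mm10. No source used here says whether counting used strand. Values as deposited by the authors were expected counts for each gene, all whole numbers, and log2(TPM + 1), from which TPM was recovered. Totals were 10133860 to 15328830 counts a library. Genes passing filterByExpr (minimum count 10, total 15) numbered 15308. edgeR 4.0.16 (R 4.3.3) was fitted over all libraries with TMM scaling, quasi-likelihood F tests and Benjamini-Hochberg adjustment at 0.05. DESeq2 1.42.0 and limma 3.58.1 were alternatives. Scripts were tested on simulated data. The 43 members and all lists were chosen with earlier results of these data known. Values were named for regulators and textbook markers and, in each comparison, for the 3 members of smallest p in each arm, and for the gene of smallest p in each further list. Relations to cell shares were added later. Within-group pairs of libraries correlated at 0.770 to 0.942, and no pair looked like repeat deposits of 1 library.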

Additional observations from a re-analysis of the deposited data

Results flagged for a closer look

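Of 172 sets of 4 libraries (43 members in 4 groups), 6 had 1 library far from the other 3, where chance gives about 1 set in 20. In vehicle, Trib3 was 55.5 CPM in replicate 1 against 32.7 to 34.7 in the others, and Mthfd2 was 31.5 CPM in the same library against 43.2 to 45.6. Dnajc3 was 170.2 CPM in vehicle replicate 3 against 88.1 to 99.0. In rapamycin replicate 3, Herpud1 was 426 CPM against 256 to 265, and Xbp1 was 448 CPM against 283 to 303. Hyou1 was 20.8 CPM in palbociclib replicate 2 against 36.3 to 39.4.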

How the results depend on the processing

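Member calls, arm medians and the fold changes of the 3 members of smallest p in each arm were recomputed under 27 alternatives. For the averaged effects and the interaction there were 26. Values of the further lists and of the cell type markers come from the edgeR fit over all 16 libraries alone. DESeq2 called 1 member for both drugs against vehicle (Ppp1r15a), 1 for combination against rapamycin (Pdia6) and 4 for palbociclib averaged over rapamycin, beside 1.2%, 1.1% and 3.1% of all genes. A fit of only the groups compared called 1 for combination against rapamycin (Vldlr), beside 0.4% of genes. With the B cell and plasma cell share as a covariate the ER-arm median was 0.30 for rapamycin against vehicle, 0.51 for both drugs against vehicle, 0.11 for combination against rapamycin, 0.26 for rapamycin averaged over palbociclib and -0.13 for the interaction, and Sdf2l1 had 0.0738 for rapamycin against vehicle and 0.12 for rapamycin averaged over palbociclib. Without the 3 least correlated libraries (vehicle 3, vehicle 4 and rapamycin 3) the ER-arm median was 0.48 for palbociclib, -0.0393 for rapamycin and 0.55 for both drugs against vehicle. By limma on TPM (3 settings) the ATF4-arm interaction median was -0.0853, -0.0858 and -0.0853. The cause of these shifts was not tested. Leaving out 1 library moved the ER-arm median of combination against rapamycin from 0.21 (without combination 3) to 0.66 (without combination 2), and the ATF4-arm interaction median from -0.0539 (without vehicle 4) to 0.38 (without vehicle 3). The ATF4-arm median of palbociclib against vehicle was -0.0129 without vehicle 3, and the ER-arm median -0.0676 with the neutrophil share as a covariate. limma on log2(TPM + 0.1) shifted the median of all genes by 0.11 for rapamycin and 0.10 for both drugs against vehicle. With the replicate number as a block 0 members were called in the 8 comparisons; deviations of same-numbered libraries correlated at -0.22 to 0.325, above 0.1 in 6 of 24 pairs, so the numbers were not taken to pair the libraries. Cth and Atf5 had few counts, so their fold changes are imprecise.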
